A study of Homo sapiens with 12 samples.

Results

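The lactate response of PLC/PRF/5, an established human hepatocellular carcinoma line, was taken from 4 of the 12 RNA-seq libraries of a study of 3 such lines. Libraries were chosen by their labels alone: 2 controls without added lactate and 2 from cells kept for 24 h with 20 mM lactate, which was added as lactic acid. All 62710 genes of the deposited tables entered the comparison and 15379 passed the filter on low counts. RNA of every library was extracted with TRIzol and made into libraries with a kit that marks strand. The labels describe no genetic change in either group. Whether replicate libraries stem from separate cultures is not in the labels, and the p-values therefore reflect only how far these libraries spread, part of which may be technical. A single line is 1 genetic background, and the same design in HLF and SNU475, the other lines of the study, is used only for comparison.

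Lactate is the end product of glycolysis. It leaves and enters cells with a proton through monocarboxylate transporters, is turned back into pyruvate by lactate dehydrogenase, and can be joined to lysines of histones and other proteins as a lactyl mark by enzymes better known as acetyltransferases. In tumours it accumulates where glucose use is high or perfusion is poor, and liver cells can use it to make glucose. Added as lactic acid it carries both the lactate anion and acid, and these cannot be told apart here because no acid-only group was analysed.

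The controls held 16533437 and 17955652 counts and the lactate libraries 22187849 and 17475342. Across genes, libraries of a group correlated at 0.991 (controls) and 0.988 (lactate), libraries of different groups at 0.975 to 0.987, and libraries of the other lines at no more than 0.828 with these 4. The first principal component, with 62.7% of the variance, placed both controls (-34.2 and -15.7) apart from both lactate libraries (15.5 and 34.4). The second, with 21.8%, set the library numbered 1 of each group above the library numbered 2. All 13 hepatocyte and hepatoma markers were above 1 CPM (counts scaled to a common library size), with alpha-fetoprotein (AFP) at 2429 TPM in controls. TPM is the deposited value per transcript length. Of the epithelial markers EPCAM was at or near 0, whereas KRT8, KRT18 and CDH1 averaged 3235, 2520 and 143.7 CPM in controls. Of the mesenchymal markers TWIST1 was at or near 0, whereas FN1, VIM and CDH2 averaged 3467, 499.3 and 108.2 CPM. PTPRC, CD3E, MS4A1, VWF, KDR, TEK, DCN and HBB had no count in any of the 4 PLC/PRF/5 libraries. Other markers of those cell types did have counts, among them LYZ (119.6 CPM in controls), CD68 (22.8), COL1A1 (2.76) and HBA2 (1.70). HBA1 averaged 0.66 CPM in controls and 3.10 with lactate and was not called.

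With lactate, 569 genes (3.7% of those tested) differed between the groups at an adjusted p under 0.05 in edgeR's quasi-likelihood test. Of these, 396 (2.57%) were higher and 173 (1.12%) lower. The higher genes included interferon-stimulated genes, type VI collagen, the collagen-modifying enzymes LOX, PLOD2 and P4HA1, and 2 genes that sense acid. The lower genes included the leucine transporter SLC7A5 with its partner SLC3A2, ribosome assembly factors, lysosomal genes and metallothionein. Changes upward were larger: 246 of the higher genes had a log2 fold change above 1, against 11 lower genes below -1. In all 569 the lactate libraries lay wholly beyond the controls, as they did, in either direction, for 28.4% (above) and 26.6% (below) of all genes tested. The count of calls was sensitive to single libraries and to the fit: it was 184 without control library 1, 1630 without lactate library 1, 245 with limma-voom, 58 with effective lengths as offsets, and 0 when all 12 libraries shared 1 estimate of the spread. The share of calls that were higher, 69.6%, became 46.4% of 894 calls when each library was corrected for GC content and 82.8% with effective lengths. Of the 70 called genes named here by rule, 34 were still called without control library 1 and 16 with effective lengths. A total of 15 were called in 12 of the 13 alternatives, the exception being the fit of all 12 libraries: ABCG4, ADGRA2, OLFML2A, NOTCH3, KLHDC7A, SARM1, LANCL2, COL6A2, IFIT1, HLA-E, ASIC1, FER1L4, ENSG00000263244, EHD2 and NOSTRIN.

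**Figure D1:**
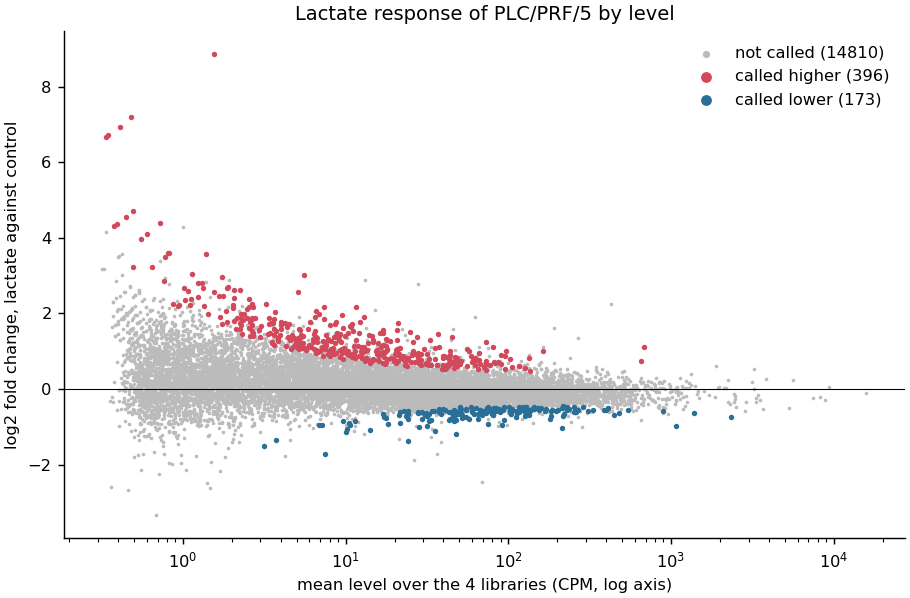
Each point is 1 of the 15379 genes tested, with its mean level over the 4 PLC/PRF/5 libraries on a log axis (CPM) and its log2 fold change, lactate against control. The 396 genes called higher spread over low and middle levels with large folds, and the 173 called lower lie at higher levels with folds mostly between 0 and -1.

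The plot of fold against level shows where the calls lie. Genes called higher had a median level of 10.4 CPM and a median transcript GC content of 57.8%. Those called lower had 71.5 CPM and 55.1%, and all genes tested 22.4 CPM and 48.3%. In the 3845 genes with the lowest levels the median log2 fold change was 0.28, and in the 3845 with the highest it was -0.11. Of those with the highest levels, 31.5% were positive, 0.83% were called higher and 2.47% lower. Shares of the lists below are set against all genes tested, not against genes of like level, unless stated. The 3726 genes with the highest GC content held 217 of the higher and 68 of the lower calls. The part of level and GC content in these calls was not tested beyond the fit with GC offsets, which kept 519 of the 569.

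Interferon-stimulated genes stood higher with lactate as a group. Of 28 listed, 23 were tested, 7 were called higher and 0 lower, which is 30.4% called higher against 2.57% of all genes. This list, like those below, was chosen with earlier results of these data known, so such shares describe and do not test. The median log2 fold change of the 23 genes was 0.79 against 0.01 for all genes tested, and 21 of the 23 were positive. Interferons act through a complex that contains STAT2 and IRF9, which binds interferon-stimulated response elements in the promoters of these genes. The core of that element, TTTC followed after 2 bases of any kind by TTTC, on either strand, was looked for in the 250 bases before each gene's start in RefSeq (GRCh38.p14). It is in 3.07% of 27305 promoters and in 10 of the 19 tested members that matched. Of the 6 called members that matched, 4 hold it (IFIT1, ISG15, BST2, ISG20) and OAS1 and IRF9 hold none in this window. The promoters of IFIT1 (chr10:89392373-89392622, plus strand), ISG15 (chr1:1013247-1013496, plus strand) and BST2 (chr19:17405631-17405880, minus strand) are shown because they are the called members with 2 matches each, with the core in capitals. In ISG15 and BST2 the matches are on the reverse strand and overlap. A match is a description of letters, not evidence of binding.
IFIT1: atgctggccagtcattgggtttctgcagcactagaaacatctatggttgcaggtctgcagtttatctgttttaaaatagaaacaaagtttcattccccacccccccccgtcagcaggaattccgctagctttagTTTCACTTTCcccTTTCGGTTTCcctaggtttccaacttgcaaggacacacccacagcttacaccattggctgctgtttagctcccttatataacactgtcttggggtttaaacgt
ISG15: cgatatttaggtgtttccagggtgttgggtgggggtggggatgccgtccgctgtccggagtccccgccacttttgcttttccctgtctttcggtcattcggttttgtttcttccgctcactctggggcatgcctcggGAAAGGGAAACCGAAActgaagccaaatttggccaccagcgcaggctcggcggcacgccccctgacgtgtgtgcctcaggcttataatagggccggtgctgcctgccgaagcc
BST2: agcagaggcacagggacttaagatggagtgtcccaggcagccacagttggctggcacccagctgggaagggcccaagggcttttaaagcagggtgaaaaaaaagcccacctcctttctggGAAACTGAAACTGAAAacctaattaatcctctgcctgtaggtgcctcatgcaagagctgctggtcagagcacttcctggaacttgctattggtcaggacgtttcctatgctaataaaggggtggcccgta

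IFIT1, which binds viral RNA lacking host cap marks, was at 5.64 and 5.35 CPM in the controls and 19.1 and 22.2 with lactate. Both lactate libraries were far above both controls, and the log2 fold change was 1.91 ± 0.18 (SE, adjusted p = 0.00449). BST2, the surface protein tetherin that holds budding virus at the membrane, went from 1.59 and 1.97 to 4.02 and 5.77 CPM (1.45 ± 0.32, adjusted p = 0.0409). ISG20, an exonuclease acting on RNA, was at 8.88 and 7.61 CPM in controls and 14.2 and 18.9 with lactate (1.01 ± 0.20, adjusted p = 0.0294). HLA-E, a non-classical MHC class I molecule read by natural killer cells, rose from 47.6 and 43.1 to 81.4 and 93.6 CPM (0.95 ± 0.12, adjusted p = 0.00876), although reads can be shared among HLA genes. In all 4 genes lactate library 2 was the higher and neither lactate library overlapped the controls.

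OAS1, a sensor of double-stranded RNA, was at 31.4 and 31.6 CPM in the controls and 45.7 and 63.7 with lactate (0.79 ± 0.16, adjusted p = 0.0348). IRF9, the DNA-binding part of the interferon-activated complex, rose from 24 and 23.5 to 35.7 and 46.5 CPM (0.79 ± 0.15, adjusted p = 0.0283). ISG15, a ubiquitin-like modifier, rose from 50.5 and 58.4 to 77.4 and 104.9 CPM (0.74 ± 0.16, adjusted p = 0.0413). Lactate library 2 was the higher for all 3. MX1 (log2 fold change 1.96), OASL (1.66), HLA-B (1.04) and PSMB9 (0.87) missed the threshold, with both lactate libraries above both controls, whereas IRF1 (-0.33) and TAP1 (-0.31) were negative. IFIT3, OAS2, IFI44, IFI44L and IRF7 had too few counts to test. The median of the list relative to the control mean was 0.06 and -0.06 in the controls and 0.43 and 0.76 with lactate. It lay between 0.51 and 0.87 over the alternatives tried, and the number of its members called lay between 0 (all 12 libraries in the fit) and 15.

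**Figure D2:**
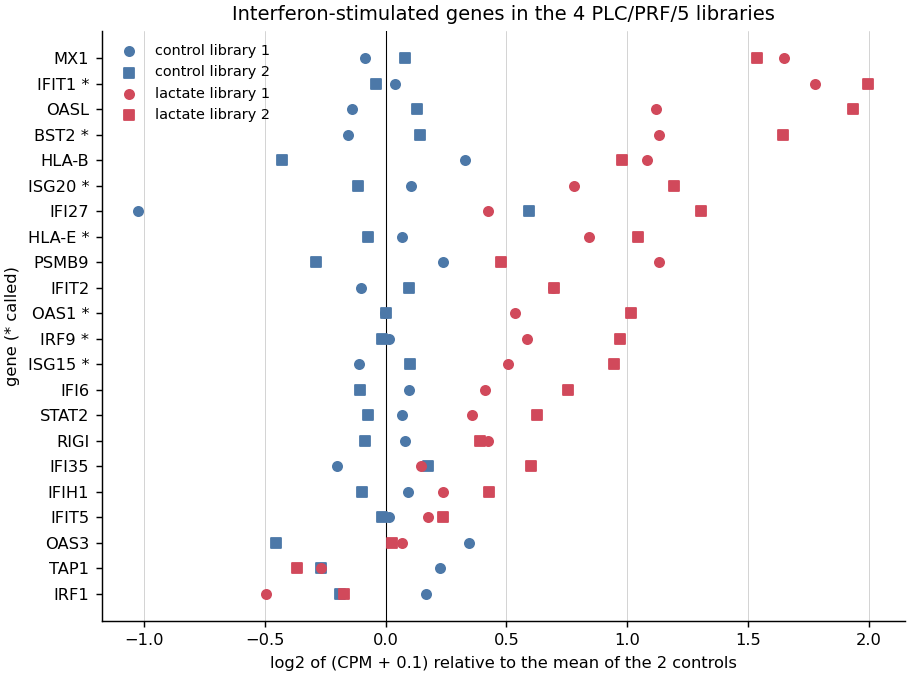
Levels of 22 interferon-stimulated genes, as log2 of (CPM + 0.1) relative to the mean of both controls, one point per library (circles library 1, squares library 2; asterisks mark called genes). In 17 of the 22 both lactate libraries lie above both controls, and in 0 below, against 28.4% and 26.6% of all genes.

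Collagen and its processing formed the next group of higher genes. Of 25 listed genes 18 were tested, 5 were called higher (27.8%) and 0 lower, with a median log2 fold change of 0.31. COL6A2 and COL6A1 encode chains of type VI collagen, a microfibrillar collagen of the pericellular matrix. COL6A2 was at 3.17 and 3.27 CPM in the controls and 12 and 11.3 with lactate, a log2 fold change of 1.85 ± 0.21 (adjusted p = 0.00715). COL6A1 was at 7.17 and 8.79 and at 18.1 and 24.2 CPM (1.40 ± 0.20, adjusted p = 0.013). The replicates of COL6A2 nearly coincided in each group. COL6A3, the third chain, had too few counts to test. The fibrillar and basement membrane collagens COL3A1 (0.14), COL4A1 (-0.06) and COL4A2 (0.22) were not called, and the values of the 18 genes ranged from -0.52 to 2.26.

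The other 3 called members are the enzymes LOX, PLOD2 and P4HA1, which also belong to the list of hypoxia effectors. LOX, lysyl oxidase, starts the cross-linking of collagen and elastin. It was at 1.08 and 1.13 CPM in the controls and 3.8 and 6.9 with lactate (2.26 ± 0.38, adjusted p = 0.0192). PLOD2, which hydroxylates collagen lysines, rose from 61.6 and 65.1 to 88.4 and 115.6 CPM (0.69 ± 0.14, adjusted p = 0.0328). P4HA1, a catalytic subunit of prolyl 4-hydroxylase, rose from 44.4 and 44.5 to 63.3 and 92.4 CPM (0.81 ± 0.17, adjusted p = 0.0446). In each of the 3 the controls nearly coincided and lactate library 2 exceeded lactate library 1.

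All 24 hypoxia effectors outside glycolysis were tested, and these 3 were the only calls (12.5% higher, 0 lower). Their median log2 fold change was 0.63, with 22 positive. The list was uneven between libraries: relative to the control mean its median was -0.12 and 0.12 in the controls, 0.23 in lactate library 1 and 0.92 in lactate library 2. CA9, carbonic anhydrase IX, a widely used hypoxia marker, was at 1.14 and 4.45 CPM in the controls and 2.38 and 16.9 with lactate, so the groups overlapped (1.74 ± 1.49, adjusted p = 0.589). VEGFA, the angiogenic factor, was at 78.8 and 84.7 CPM and at 87.3 and 96.7 (0.17 ± 0.11, adjusted p = 0.40). Without lactate library 2 the median of the list was 0.23. Hypoxia-inducible factors bind ACGTG or GCGTG; either strand of these letters is in 43.1% of all promoters, in 16 of the 20 matched members and in all 3 called ones. The 250 bases before LOX (chr5:122078260-122078509, minus strand), which hold 4 such matches in capitals, are shown as the member with the largest fold.
LOX: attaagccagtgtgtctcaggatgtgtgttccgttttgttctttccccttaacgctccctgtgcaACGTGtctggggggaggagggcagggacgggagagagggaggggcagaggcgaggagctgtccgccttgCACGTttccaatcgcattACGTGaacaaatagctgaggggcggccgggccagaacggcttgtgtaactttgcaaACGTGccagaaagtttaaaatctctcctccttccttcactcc

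Of 19 tested enzymes of glycolysis, the pathway that makes lactate, 2 were called higher (10.5%, against 2.57% of all genes) and 0 lower, with a median log2 fold change of 0.22. PFKM, the muscle form of phosphofructokinase, was at 49.6 and 48.3 CPM in the controls and 69.7 and 82.6 with lactate (0.64 ± 0.12, adjusted p = 0.0283). ENO3, the muscle form of enolase, went from 14.8 and 17.1 to 29.9 and 22.8 CPM (0.73 ± 0.17, adjusted p = 0.0493). The groups did not overlap for either enzyme. HK2, hexokinase 2, was at 3.23 and 8.34 and at 4.28 and 13.7 CPM, with library 2 the higher in both groups (0.61 ± 0.85, adjusted p = 0.736). The glucose transporter SLC2A1 was at 65.5 and 76.8 and at 59.2 and 100.9 CPM (0.17 ± 0.27, adjusted p = 0.763). PGK1 (0.22 ± 0.15), ENO1 (-0.21 ± 0.14) and PKM (-0.12 ± 0.15), enzymes of the lower pathway, had adjusted p of 0.42, 0.407 and 0.658. Without lactate library 2 the median of the list was -0.04.

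Of the 23 tested genes that make, carry or use lactate and pyruvate, 0 were called in either direction, and the median was 0.15. LDHA, which favours lactate formation, was at 1354 and 1394 CPM in controls and 1338 and 1556 with lactate (0.08 ± 0.13, adjusted p = 0.781). LDHB, which favours pyruvate, was at 942.4 and 1010 and at 956.4 and 1025 CPM (0.02 ± 0.13, adjusted p = 0.94). The groups overlapped for both dehydrogenases. The exporter SLC16A3 (MCT4) was at 9.07 and 13 CPM in the controls and 20.5 and 45.9 with lactate, without overlap but with a wide spread (1.58 ± 0.51, adjusted p = 0.205). The transporter SLC16A1 (MCT1) was at 90.8 and 76.4 and at 82 and 79.3 CPM (-0.05 ± 0.12, adjusted p = 0.836). PDK4 and PDK1, kinases that shut off pyruvate dehydrogenase, had log2 fold changes of 0.73 ± 0.22 and 0.90 ± 0.32 with adjusted p of 0.127 and 0.18. PCK1, an enzyme of glucose synthesis from lactate, and LDHD, the D-lactate dehydrogenase, had values of 2.08 and 1.45 and were not called.

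Enzymes linked to adding or removing lactyl marks gave 0 higher and 1 lower call among 20 tested (5% lower), with a median of 0.06. That median turned to -0.02 with GC offsets, -0.0076 with effective lengths, -0.02 without control library 1 and -0.08 without lactate library 2. CREBBP, the acetyltransferase CBP, fell from 76.7 and 68.2 to 46.7 and 47.6 CPM (-0.62 ± 0.12, adjusted p = 0.027). Its paralogue EP300 was at 130.8 and 135.1 and at 107.5 and 107.3 CPM (-0.31 ± 0.11, adjusted p = 0.127). KAT2A (GCN5) had -0.47 ± 0.13 and an adjusted p of 0.0667. Both lactate libraries were below both controls for 7 of the 20 genes, among them these 3 acetyltransferases, and above them for 4 (KAT8, ACSS2, SUCLG2 and HDAC6), against 26.6% below and 28.4% above of all genes tested. MondoA and ChREBP are factors that sense glucose. The list of genes they activate also holds both factors (MLXIP and MLXIPL) and their partner MLX. It gave 0 calls among 10 tested, with a median of 0.26. TXNIP, the best known target of these factors, was near the detection limit at 0.51 and 0.34 CPM in the controls and 0.95 and 1.81 with lactate (1.68 ± 0.56, adjusted p = 0.115).

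A proton-gated channel and a proton-sensing receptor rose. Of 16 tested genes of pH regulation, 2 were called higher (12.5%) and 1 lower (6.25%), with a median of 0.15. The channel, ASIC1, which passes sodium, rose from 2.98 and 2.59 to 8.21 and 13.8 CPM (1.98 ± 0.29, adjusted p = 0.0155). The receptor, GPR4, which couples to G proteins, rose from 1.08 and 0.85 to 3.71 and 3.9 CPM (1.98 ± 0.34, adjusted p = 0.0211). The related receptors GPR65 and GPR132 had too few counts to test. SLC4A2, an exchanger of chloride for bicarbonate, fell from 503.8 and 425.1 to 333 and 298.5 CPM (-0.56 ± 0.13, adjusted p = 0.0481).

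Among protein-coding calls with a mean of at least 2 CPM, the 12 with the largest rises were ICAM5, ABCG4, ADGRA2, FAM131C, CORO1A, LOX, SLC5A5, CACNA1G, OLFML2A, KRT81, NOTCH3 and HES7, with log2 fold changes from 2.16 to 2.61. They are genes of low expression here, with TPM of no more than 4.93 in the lactate group. NOTCH3, a receptor of the Notch pathway, was at 4.88 and 3.55 CPM in controls and 17.5 and 20.1 with lactate (2.16 ± 0.21, adjusted p = 0.00449). HES7, a repressor of the HES family that acts downstream of Notch in the embryo, was at 0.95 and 1.01 and at 4.1 and 4.75 CPM (2.16 ± 0.33, adjusted p = 0.0155). ADGRA2, an adhesion receptor that helps Wnt7 signalling, was at 1.4 and 1.52 and at 7.82 and 9.67 CPM (2.57 ± 0.27, adjusted p = 0.0049). For these 3 the lactate libraries stood close together and well above both controls.

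ICAM5, an adhesion molecule known from neurons, had the largest value of these 12, 2.61 ± 0.42, with 0.70 and 0.45 CPM in controls and 2.89 and 4.19 with lactate (adjusted p = 0.0176). SLC5A5, the sodium-iodide symporter, was at 0.70 and 1.13 and at 2.68 and 6.17 CPM (2.24 ± 0.48, adjusted p = 0.0429), with a wide gap between the lactate libraries. KRT81, a hair keratin whose reads may be shared with near-identical keratins, was at 1.14 and 0.73 and at 5.44 and 2.94 CPM (2.17 ± 0.42, adjusted p = 0.0283). CORO1A, a leukocyte actin-binding protein, was at 1.21 and 0.45 and at 4.19 and 4.36 CPM (2.38 ± 0.42, adjusted p = 0.0232), and its value was 3.22 without control library 1 and 1.81 without control library 2. The calcium channel subunit CACNA1G had 2.22 ± 0.40 (adjusted p = 0.0232). SLC5A5 had 1.54 without lactate library 2 and 1.95 without control library 1, and lost its call in both. FAM131C, at 0.32 and 0.96 and at 3.11 and 3.9 CPM (2.42 ± 0.47), had 3.42 without control library 2 and 1.86 without control library 1, where its call was lost. The leukocyte marker PTPRC had no count in these 4 libraries.

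**Figure D3:**
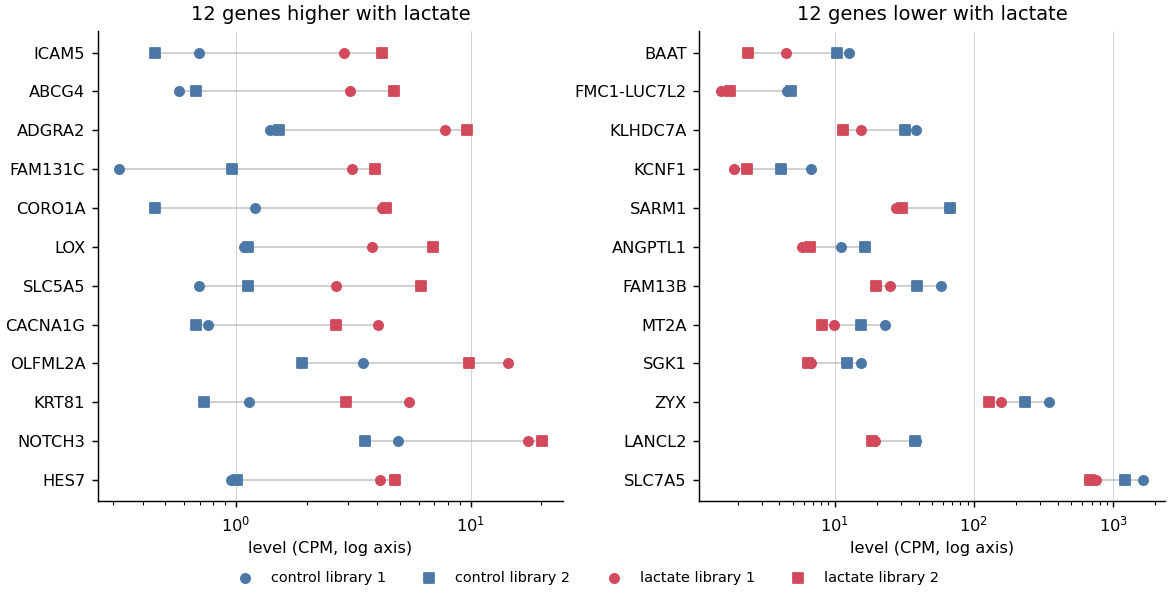
Levels (CPM, log axes) in each library of the 12 protein-coding genes with the largest rises (left) and the 12 with the largest falls (right) among calls with a mean of at least 2 CPM; blue marks controls, red marks lactate, circles library 1 and squares library 2. In all 24 the lactate libraries lie wholly on one side of the controls.

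Under the same limit of 2 CPM the 12 largest falls were in BAAT, FMC1-LUC7L2, KLHDC7A, KCNF1, SARM1, ANGPTL1, FAM13B, MT2A, SGK1, ZYX, LANCL2 and SLC7A5, with values from -1.73 to -0.99. BAAT, which joins bile acids to glycine or taurine in hepatocytes, fell from 12.7 and 10.4 to 4.45 and 2.38 CPM (-1.73 ± 0.29, adjusted p = 0.0227). SARM1, an enzyme that cleaves NAD in axon degeneration, fell from 65.9 and 67.2 to 27.5 and 30.6 CPM (-1.20 ± 0.12, adjusted p = 0.0049). ZYX, the focal adhesion protein zyxin, fell from 344.3 and 232.1 to 155.3 and 127.2 CPM (-1.03 ± 0.20, adjusted p = 0.0434). The controls of SARM1 nearly coincided, whereas those of ZYX stood far apart. SGK1, a kinase induced by serum and glucocorticoids, also fell (-1.07 ± 0.20, adjusted p = 0.0246). FMC1-LUC7L2 is a readthrough transcript that shares sequence with its neighbours, so its count is uncertain.

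The heterodimer that imports leucine and other large amino acids was lower in both subunits. SLC7A5 (LAT1) fell from 1652 and 1212 to 756.8 and 685.2 CPM (-0.99 ± 0.16, adjusted p = 0.02). SLC3A2, its heavy chain (CD98), fell from 617.1 and 485.3 to 341.7 and 344.7 CPM (-0.68 ± 0.14, adjusted p = 0.031). Both lactate libraries lay well below the lower control for each subunit. Among 23 tested genes of the integrated stress and amino acid response these were the only calls (0 higher, 8.7% lower), and the median of that list was positive, 0.19.

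Genes of ribosome assembly and of DNA replication were mostly negative. For ribosome biogenesis, 0 of 20 were called higher and 3 lower (15% against 1.12% of all genes), with a median of -0.36 and 19 negative. RRS1, an assembly factor of the large subunit, fell from 113.7 and 83.8 to 53.7 and 50.3 CPM (-0.92 ± 0.15, adjusted p = 0.0204). RRP12 (-0.55 ± 0.11, adjusted p = 0.0316) and POLR1A, the largest subunit of RNA polymerase I (-0.48 ± 0.11, adjusted p = 0.0434), also fell. In 17 of the 20 both lactate libraries were below both controls, against 26.6% of all genes. The list's median lay between -0.39 and -0.24 over the alternatives. Its median level was 108 CPM. The 3845 genes with the highest levels had a median of -0.11, with 2.47% called lower.

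For DNA replication, 0 of 22 were called higher and 1 lower (4.55%), with a median of -0.29 and 21 negative. The median level of this list was 77.5 CPM, also in the range of the 3845 genes with the highest levels. MCM2, a subunit of the replicative helicase, fell from 211.4 and 191.6 to 147.6 and 132.9 CPM (-0.52 ± 0.12, adjusted p = 0.0425). Its partner MCM5 had -0.40 ± 0.12 and an adjusted p of 0.0774. Only RFC4 was positive, at 0.30. Mitotic genes gave 1 lower call of 20 (5%), PLK1, the kinase that drives mitotic entry, which fell from 215.3 and 189.2 to 146.1 and 123.1 CPM (-0.59 ± 0.13, adjusted p = 0.0399). Their median was -0.13 and turned to 0.07 without lactate library 2. In the list of cell-cycle regulators and p53 targets, CDKN1A (p21), an inhibitor of cyclin-dependent kinases, rose from 7.23 and 5.8 to 12.2 and 12.8 CPM (0.94 ± 0.20, adjusted p = 0.0341). TP53I3 fell (-0.66 ± 0.15, adjusted p = 0.0455), and the other 20 tested members were not called. Fewer dividing cells and less RNA per cell cannot be told apart in bulk libraries.

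Among the 13 mRNAs of the mitochondrial genome 0 were called higher and 1 lower (7.69%), with a median of -0.21. MT-ND1, a subunit of complex I, fell from 3092 and 2792 to 1827 and 1710 CPM (-0.73 ± 0.14, adjusted p = 0.025). MT-ND2 was at 3678 and 3131 and at 2223 and 2337 CPM and just missed the threshold (-0.58 ± 0.14, adjusted p = 0.0562). MT-ND4 (0.06) and MT-CO1 (-0.11) overlapped between the groups. Mitochondrial transcripts took between 6.21% and 7.08% of the counts of each library. The 26 nuclear-encoded genes of the respiratory chain gave 0 calls and a median of 0.03.

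Metal and redox genes were among the lower calls. Metallothioneins are small proteins that bind zinc and copper, and zinc induces them through the factor MTF1 at metal response elements. The list of metallothioneins also holds MTF1 itself and the zinc exporter SLC30A1. Of its 6 tested genes 0 were called higher and 2 lower (33.3%), with a median of -0.37 and all 6 negative. The only metallothionein called was MT2A. MT2A fell from 23 and 15.4 to 9.89 and 8.03 CPM (-1.09 ± 0.22, adjusted p = 0.0341). SLC30A1, a zinc exporter also induced through MTF1, fell from 134.8 and 105 to 73.9 and 61.7 CPM (-0.82 ± 0.15, adjusted p = 0.0261). Both lactate libraries were below both controls in each. The coding sequences of metallothioneins are near-identical, so counts of single members are uncertain. The metal response element core, TGCACNC or TGCGCNC on either strand, is in 24.7% of all promoters, in 3 of 4 matched members and in both called ones. The promoter of MT2A (chr16:56608334-56608583, plus strand), with 7 matches, is shown with them in capitals.
MT2A: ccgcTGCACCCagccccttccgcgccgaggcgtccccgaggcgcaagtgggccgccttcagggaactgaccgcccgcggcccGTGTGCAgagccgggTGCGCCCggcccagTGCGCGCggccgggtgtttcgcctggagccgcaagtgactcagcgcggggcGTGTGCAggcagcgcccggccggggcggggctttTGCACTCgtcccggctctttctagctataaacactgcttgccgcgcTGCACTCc

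NRF2 targets gave 1 higher (4.76%) and 2 lower calls (9.52%) of 21, with a median of -0.17. Their median level was 221.4 CPM, and the 3845 genes with the highest levels had a median of -0.11, with 2.47% called lower. HMOX1, heme oxygenase 1, fell from 312.2 and 230.3 to 171.1 and 171.8 CPM (-0.66 ± 0.15, adjusted p = 0.0455). SRXN1, sulfiredoxin, fell from 111.9 and 106.3 to 81.8 and 75 CPM (-0.48 ± 0.11, adjusted p = 0.0482). ABCC3, an exporter of organic anions and bile salts, rose from 10.4 and 12.1 to 20.8 and 21.3 CPM (0.90 ± 0.16, adjusted p = 0.0232).

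Lysosomal genes gave 0 higher and 4 lower calls among 21 tested (19%), with a median of -0.14 and 6 positive. Their median level was 244.7 CPM. The 3845 genes with the highest levels had a median of -0.11, with 31.5% positive and 2.47% called lower. The median of the list was thus close to that of genes at like levels. SQSTM1 (p62), the adaptor that carries cargo into autophagosomes, fell from 1713 and 1662 to 1052 and 1107 CPM (-0.65 ± 0.13, adjusted p = 0.0283). CLN6, a membrane protein needed for delivery of lysosomal enzymes, fell from 154 and 159.1 to 99.9 and 92.3 CPM (-0.70 ± 0.11, adjusted p = 0.0176). The replicates of both genes stood close together in each group. MCOLN1, a lysosomal calcium channel, fell from 46 and 45.2 to 29.2 and 30.7 CPM (-0.61 ± 0.12, adjusted p = 0.0306). Factors of the TFEB family bind the letters TCACGTG, which are in 3.38% of all promoters, in 5 of 14 matched members and in 1 of the 3 called members that matched. That 1 is MCOLN1 (chr19:7522374-7522623, plus strand), whose 4 matches pair on the strands as the palindrome shown in capitals.
MCOLN1: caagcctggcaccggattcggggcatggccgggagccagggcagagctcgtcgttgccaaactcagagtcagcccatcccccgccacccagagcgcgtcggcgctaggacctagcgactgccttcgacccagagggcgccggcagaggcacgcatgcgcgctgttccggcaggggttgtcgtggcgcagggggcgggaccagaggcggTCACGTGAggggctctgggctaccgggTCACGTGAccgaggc

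Growth factor and matrix genes outside collagen gave scattered calls. In the TGF-beta and BMP pathway 3 of 23 were called higher (13%) and 0 lower, while the median was -0.13. The called members were INHBE, the inhibin beta E chain of liver, and the latent TGF-beta binding proteins LTBP4 and LTBP2. INHBE rose from 13.6 and 10.6 to 30 and 29 CPM (1.29 ± 0.16, adjusted p = 0.00876). LTBP4 rose from 25.8 and 31.9 to 56 and 61 CPM (1.02 ± 0.14, adjusted p = 0.0114), and LTBP2 from 1.84 and 2.31 to 6.17 and 7.69 CPM (1.73 ± 0.27, adjusted p = 0.0176). Proteases gave 2 higher calls of 13 (15.4%), ADAMTS7 and the sheddase ADAM19, which rose from 4.76 and 4.62 to 9.37 and 11.6 CPM (1.16 ± 0.22, adjusted p = 0.0251). The integrin subunit ITGA3 was the only call of 20 in its list (5%), at 0.63 ± 0.13 (adjusted p = 0.0319).

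Lineage genes gave few calls. Of 22 tested secreted proteins of hepatocytes, 1 was called higher (4.55%), AHSG, at 0.44 and 0.17 CPM in the controls and 1.34 and 3 with lactate. The median of this list was 0.51 and 0.06 without lactate library 2. Albumin (ALB) was at 30.4 and 76.4 CPM in the controls and 56.5 and 139.8 with lactate, so the groups overlapped (0.87 ± 0.84, adjusted p = 0.636). AFP was at 1975 and 3332 and at 3049 and 4634 CPM (0.53 ± 0.32, adjusted p = 0.383). In each group library 2 was the higher for both genes. Epithelial genes gave 2 higher calls of 19 (10.5%), KRT81 and the splicing regulator ESRP1, the latter with 1 count over the controls and 34 with lactate. Mesenchymal genes gave 0 of 14, and vimentin (VIM) had -0.60 ± 0.17 and an adjusted p of 0.0829.

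Of 9 tested markers of other liver and blood cells, 1 was called higher (11.1%), PECAM1, an adhesion molecule of endothelium and platelets. It was at 1.65 and 2.14 CPM in the controls and 5.48 and 5.66 with lactate (1.55 ± 0.28, adjusted p = 0.0238). The summed level of the 5 endothelial markers was 1.65 and 2.37 CPM in controls and 5.74 and 6.56 with lactate, nearly all of it PECAM1. CDH5 was at 0 and 0.225 CPM in the controls and 0.259 and 0.905 with lactate, and VWF, KDR and TEK had no count in these libraries. The summed level of the 7 leukocyte markers was 106.9 and 178.7 and 147.3 and 228.7 CPM, from LYZ and CD68, with PTPRC, CD3E and MS4A1 at 0.

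Lists without a call covered 18 genes of the unfolded protein response (median 0.17), 24 of cholesterol synthesis and uptake (0.13), 21 of fatty acid synthesis and oxidation (0.12), 19 hepatic transcription factors and enzymes (0.21), 20 inflammatory genes (-0.35), 22 immediate early genes (-0.06) and 17 YAP and TEAD targets (-0.23). Members with the smallest p pointed both ways. In cholesterol synthesis MSMO1, a sterol methyl oxidase, had 0.66 ± 0.17 (adjusted p = 0.0737). In fatty acid metabolism ACACB, the mitochondrial acetyl-CoA carboxylase, had 0.68 ± 0.17 (adjusted p = 0.0611). The liver transcription factor PROX1 was at 99 and 87.2 CPM in the controls and 66.6 and 67.1 with lactate and just missed the threshold (adjusted p = 0.0524). The AP-1 member FOSL1 had -0.98 ± 0.28 (adjusted p = 0.0865) and the Hippo kinase LATS2 -0.56 ± 0.15 (adjusted p = 0.0699). Among the inflammatory genes 15 of 20 were negative. RELB, a subunit of NF-kB, was at 82.8 and 58.2 CPM in the controls and 45.3 and 36.8 with lactate (-0.78 ± 0.18, adjusted p = 0.061). MYC was at 90.7 and 97.8 and at 74.7 and 73.6 CPM (-0.35 ± 0.11, adjusted p = 0.101). Over the 32 lists, 589 of 664 genes were tested, 28 were called higher and 19 lower.

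**Figure D4:**
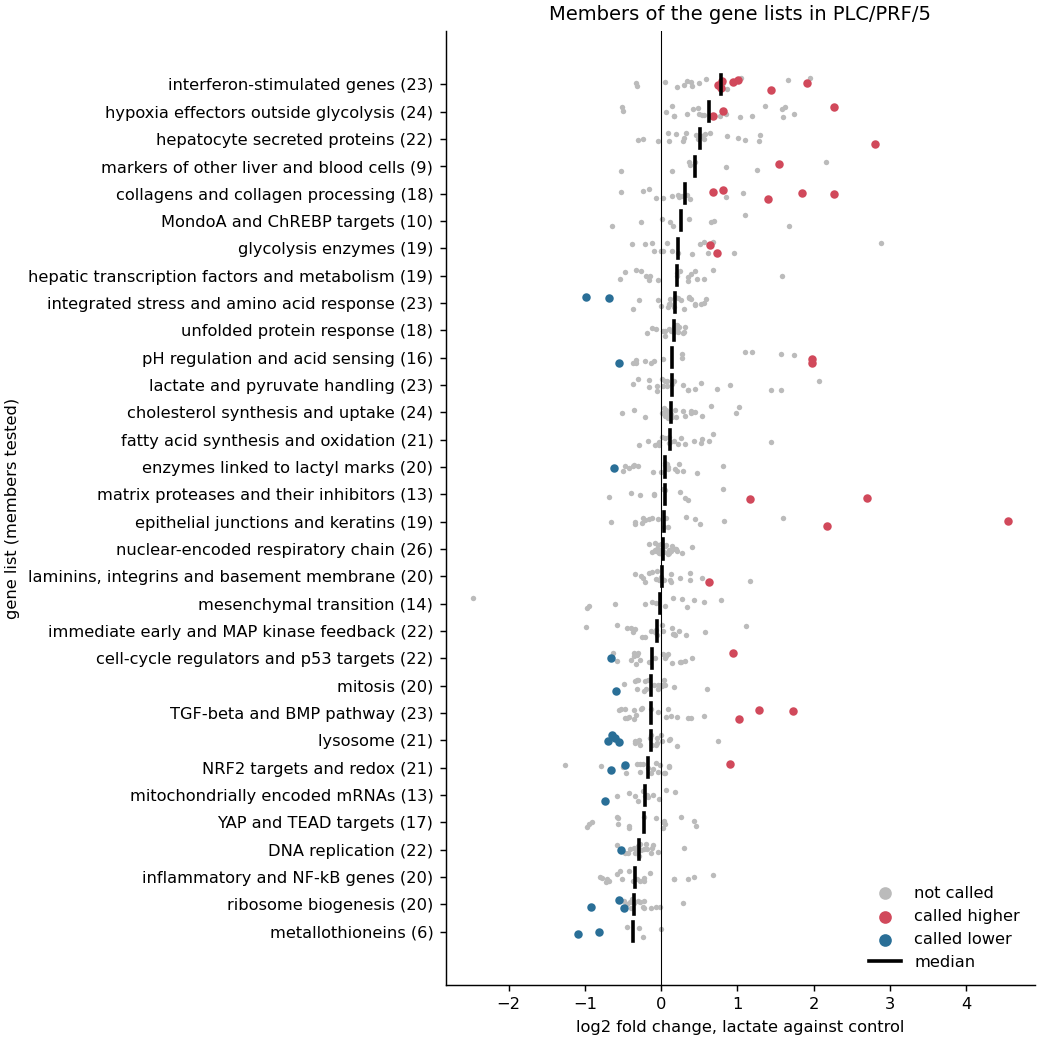
Log2 fold changes of the tested members of 32 gene lists in PLC/PRF/5, ordered by their median (black bar); red points were called higher and blue points lower. Interferon-stimulated genes have the highest median (0.79). The list of metallothioneins, which also holds MTF1 and SLC30A1, has the lowest (-0.37).

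Among noncoding genes, FER1L4, a transcribed pseudogene, was at 1.08 and 1.35 CPM in the controls and 9.2 and 10.6 with lactate (3.01 ± 0.27, adjusted p = 0.00449). ENSG00000263244, annotated as a noncoding RNA overlapping a 3′ end, had no count in either control and 128 counts with lactate, at 3.37 and 2.83 CPM. Against a floor of 3 counts over both controls this is at least 37.1-fold higher. In HLF, however, replicates of this gene differed widely within both groups. Its mean there was 3.38 CPM (SD 4.78) in controls and 2.09 CPM (SD 2.95) with lactate. In SNU475 the means were 11.6 CPM (SD 0.18) and 8.33 CPM (SD 2.48). LINC00963 rose from 80.3 and 88.4 to 128.1 and 123.4 CPM (0.58 ± 0.11, adjusted p = 0.0283). The antisense RNAs DSCAM-AS1 (1.43 ± 0.28) and ZNF710-AS1 (1.17 ± 0.22) were also called higher, with adjusted p of 0.0283 and 0.0261. Whether the counting used strand is not given, so reads of their partner genes may be included.

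The other lines were fitted separately from PLC/PRF/5 and share none of its libraries. In their own fits 1 gene was called in HLF and 0 in SNU475. The genes called in PLC/PRF/5 nonetheless leaned the same way there. Of 304 called higher and tested in HLF, 258 (84.9%) were positive in HLF, against 49.0% of all 13439 genes tested in both. In SNU475 it was 296 of 346 (85.5%) against 50.1%. Of the genes called lower, 17 of 168 (10.1%) were positive in HLF and 24 of 169 (14.2%) in SNU475. With genes split by level in PLC/PRF/5 into 4 bins of equal size, the positive share of the higher calls in HLF was 75.9% to 87%, against 41.4% to 55.8% of all genes, and in SNU475 83.1% to 87.7% against 47.8% to 51.7%.

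**Figure D5:**
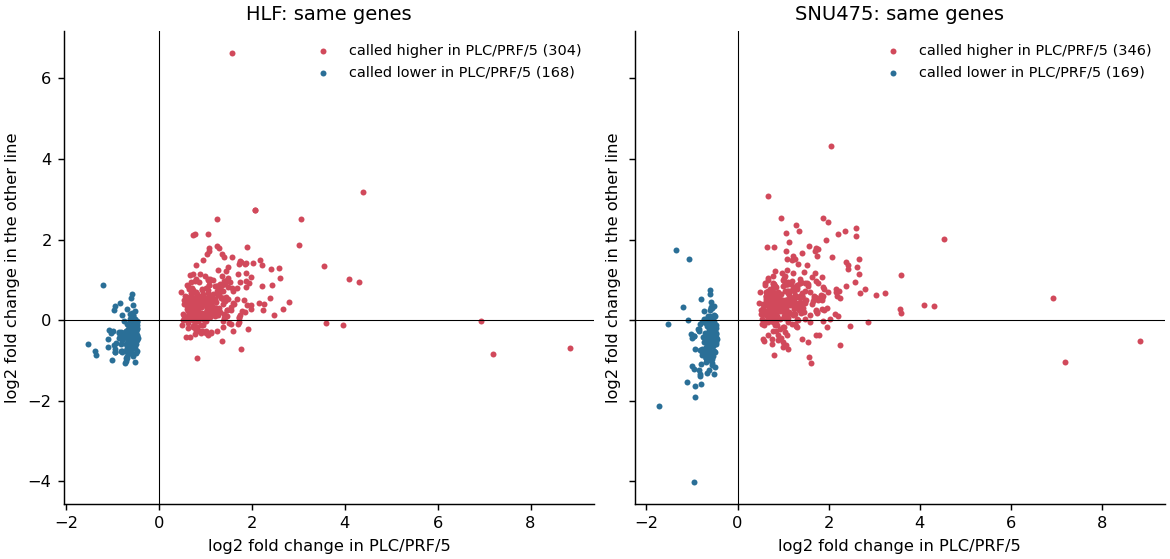
Log2 fold change with lactate in PLC/PRF/5 (horizontal) and in HLF (left) or SNU475 (right) for genes called in PLC/PRF/5, red for higher and blue for lower. Most red points lie above 0 and most blue points below 0 in both lines.

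Of the interferon-stimulated genes, 7 of 27 tested were positive in HLF (median -0.11) and 21 of 27 in SNU475 (median 0.26). IFIT1 had -0.23 ± 0.25 in HLF and 0.26 ± 0.50 in SNU475, beside 1.91 ± 0.18 in PLC/PRF/5. The control mean of IFIT1 was 61.5 CPM in HLF and 12.1 in SNU475, against 5.50 in PLC/PRF/5. COL6A2 had 0.21 ± 0.19 and 0.54 ± 0.29, beside 1.85 ± 0.21. Its starting level differed widely, with control means of 641.4 CPM in HLF and 424.1 in SNU475 against 3.22 in PLC/PRF/5. DNA replication and ribosome biogenesis had negative medians in all 3 lines, of -0.26 and -0.34 in HLF and -0.49 and -0.34 in SNU475. LANCL2 had -0.996 ± 0.216 in HLF and -1.14 ± 0.40 in SNU475, beside -1.01 ± 0.13 in PLC/PRF/5. SARM1 was positive in both other lines, at 0.88 ± 0.50 and 0.34 ± 0.81, beside -1.20 ± 0.12. Its control mean was only 0.97 CPM in HLF and 0.66 in SNU475, against 66.6 in PLC/PRF/5, so those positive values lie near the floor.

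The difference between lines was tested directly, as the effect in PLC/PRF/5 minus the mean effect in HLF and SNU475 in 1 fit of all 12 libraries. It gave 0 calls among 18355 genes (0%), with 743 at an unadjusted p under 0.05 in this edgeR test and a smallest adjusted p of 0.861. Those 743 are fewer than a threshold of 0.05 gives by itself when no gene differs. DESeq2 gave 6 and limma-voom 0, and leaving out SNU475 lactate library 1 gave 10. The 6 genes with the smallest p were SARM1, COL6A2, EHD2, EFEMP2, NOSTRIN and GDF11. They were picked by this contrast, so large gaps between lines follow from the choice, and none was called. EHD2, a protein of caveolae, rose in PLC/PRF/5 from 5.01 and 5.92 to 14.3 and 16.1 CPM (1.47 ± 0.19, adjusted p = 0.00876), beside 0.10 ± 0.19 in HLF and 0.19 ± 0.29 in SNU475. In those lines EHD2 started far higher, with control means of 440.7 and 540.6 CPM. GDF11, a TGF-beta family ligand, rose from 7.99 and 8.85 to 17.5 and 17.4 CPM (1.05 ± 0.17, adjusted p = 0.0177), beside -0.36 ± 0.22 and -0.30 ± 0.32.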

How the data were processed

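RNA-seq of PLC/PRF/5 (2 control and 2 lactate libraries) was analysed, with 8 libraries of HLF and SNU475 for comparison. The deposited tables, 1 per library, hold RSEM expected counts (estimated, not always whole), TPM and effective lengths, per the file headers. FastQC, STAR, RSEM and DESeq2 are listed without versions in the submitters' processing notes, beside the mouse builds GRCm38 and mm10. All identifiers are human, and which human build and annotation were used is not given in the sources used here, so no gene coordinates are printed except those of RefSeq promoters. Deposited TPM values were used only for levels per length, and effective lengths, deposited under that name, only as an alternative offset.

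The 47 rows for pseudoautosomal Y copies were added to their X copies. Expected counts were rounded, filtered by filterByExpr of edgeR 4.0.16 (R 4.3.3) and scaled by TMM factors of 0.955 to 1.045. The quasi-likelihood test with robust dispersions was fitted to the 4 libraries without a replicate block, with 2 residual degrees of freedom and a common coefficient of variation of 0.129. P-values were adjusted by Benjamini-Hochberg over the 15379 genes and called at 0.05. The difference between lines was a contrast in 1 fit of all 12 libraries. CPM values are on scaled library sizes. Errors given as SE were derived from the test, as the absolute log2 fold change divided by the square root of its F statistic. DESeq2 1.42.0 and limma 3.58.1 (voom) were alternatives. The code was tested on simulated data.

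Replicates differed by more than sampling noise (chi-square per degree of freedom 12.3 and 19.3). Genes were named by rule: the 12 higher and 12 lower protein-coding calls with the largest fold and a mean of at least 2 CPM; up to 4 called members of each of 32 lists by smallest p, or the 2 smallest p where fewer than 2 were called; 5 noncoding calls; the 6 smallest p for the difference between lines; and a fixed set of 18. Other genes were named after their values were seen, and some that the rule names are not reported here. The lists and members were chosen with earlier results of these data known. Transcript GC content is from GENCODE and promoters are from RefSeq, matched by symbol.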

Additional observations from a re-analysis of the deposited data

How the results depend on the processing

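The 569 calls became 574 with RLE factors, 801 with DESeq2 and 390 without robust estimates. They moved further to 1948 without a filter on low counts, 245 with limma-voom, 58 with effective lengths, 0 with all 12 libraries in the fit (smallest adjusted p 0.0518, 1087 genes at an unadjusted p under 0.05) and 894 with GC offsets, an alternative chosen after seeing the data. Leaving out 1 library gave 184 to 1630. The lone library of a group is then assumed to vary like the other group. The cause was not tested. The difference between lines, 0 calls, became 69 without a filter and 6 with DESeq2, and 0 to 10 when 1 library was left out.

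With the replicate number as a block the calls became 3076, holding all 569, and the difference between lines 8. It also called 38 further named genes, ALB, AFP and CA9 among them. No label says what a shared number stands for, and the PLC/PRF/5 libraries titled 2 bear a 3 in their deposited names, so what the block pairs is uncertain. Between the groups, deviations from the group mean correlated at 0.26 for libraries with the same number, and both libraries numbered 2 lay above both numbered 1 for 14.3% of genes and below for 13.7%.

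In all 70 called genes named by rule the lactate libraries lay wholly beyond the controls, so leaving out 1 library could hardly turn their sign. None changed sign under these alternatives, which therefore adds no support for these genes. Among uncalled ones, values turned when 1 library was left out, without lactate library 2 for LDHA (-0.0383 to 0.172), HK2 (-0.445 to 1.45), SLC2A1 (-0.266 to 0.495), PGK1 (-0.0136 to 0.405), CA9 (-0.25 to 3.04) and LDHB (-0.0317 to 0.0614), without control library 1 for SLC16A1 (-0.182 to 0.0748) and LDHB, and without lactate library 1 for PKM (-0.277 to 0.00833). With effective lengths LDHB was -0.00985. The medians of 18 of the 32 lists changed sign under at least 1 alternative, 11 of them without lactate library 2 and 6 without control library 1. Genes at few counts are limited by depth and were tested only where the filter passed them.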

Other observations

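Several called genes outside the lists are described here, chosen after their values were seen. Among interferon-related genes, UBE2L6, the conjugating enzyme for ISG15, rose from 4.82 and 5.3 to 14.6 and 19.1 CPM (log2 fold change 1.73 ± 0.20, adjusted p = 0.0072). HELZ2, a helicase, rose from 77.1 and 59.2 to 122.6 and 125.7 CPM (0.87 ± 0.14, adjusted p = 0.0177). EPSTI1 had no count in the controls and 33 with lactate, at least 9.57-fold higher against a floor of 3 counts over both controls. In HLF the values of UBE2L6 and HELZ2 were -0.06 and 0.43, and in SNU475 0.26 and 0.67.

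CYP24A1, the enzyme that inactivates active vitamin D, was at 450.4 and 410.1 CPM in the controls and 1051 and 821.3 with lactate (1.12 ± 0.15, adjusted p = 0.00876). PRAME, a tumour antigen, rose from 45 and 42.5 to 104.2 and 101.4 CPM (1.23 ± 0.11, adjusted p = 0.00449), and its replicates nearly coincided. SEMA6B, a semaphorin, rose from 20 and 19.7 to 49 and 60 CPM (1.46 ± 0.14, adjusted p = 0.00449). The complement component C5 rose from 59.3 and 69.2 to 115.2 and 144.6 CPM (1.01 ± 0.14, adjusted p = 0.0123), and the lipoprotein receptor LRP1 from 101.6 and 118.6 to 183.7 and 254.9 CPM (0.99 ± 0.17, adjusted p = 0.0235).

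Abundant genes called lower included both nonerythroid spectrin chains of the membrane skeleton. SPTBN1 fell from 1140 and 999.2 to 737.4 and 682.1 CPM (-0.59 ± 0.13, adjusted p = 0.0409). SPTAN1 fell from 648.1 and 513.4 to 403.1 and 345.3 CPM (-0.63 ± 0.15, adjusted p = 0.0469). TRIM28, a corepressor that silences transposable elements, fell from 691.3 and 611.3 to 433.3 and 453 CPM (-0.56 ± 0.12, adjusted p = 0.041). PRPF8, the core protein of the spliceosome, also fell (-0.50 ± 0.11, adjusted p = 0.0435). SPTBN1 and SPTAN1 had values of 0.17 and 0.16 in HLF and of 0.46 and -0.02 in SNU475.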
